A study of Mus musculus with 18 samples.

Results

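Tmem176a and Tmem176b are neighbouring genes that were read across the NKT1, NKT2 and NKT17 subsets of thymic invariant natural killer T (iNKT) cells from WT and SKG mice. They were taken from the count table by their symbols, as 2 of its 23337 genes. The members were chosen by their known link to type 17 lymphocytes together with their measured levels over the 6 genotype-by-subset groups of these same libraries, so differences between the subsets are given as a description, with no test. The tests below concern SKG against WT and the balance of the 2 genes, and since the pair was chosen with earlier results of the same libraries known, they describe these libraries and support nothing beyond them. Both genes passed the filter on low counts, which kept 11118 genes.

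Tmem176a and Tmem176b encode related multi-pass membrane proteins that resemble the MS4A family, whose best known member is CD20. The proteins sit mainly on endosomes and other vesicles inside the cell, where they have been tied to cation transport, and Tmem176b has also been studied in dendritic cells. In lymphocytes the pair is known as part of the type 17 program of T helper 17 cells, gamma delta T cells and innate lymphoid cells. iNKT cells recognise lipid antigens on CD1d and divide in the thymus into NKT1 cells, which make interferon-gamma, NKT2 cells, which make IL-4, and NKT17 cells, which make IL-17.

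The 18 libraries form 6 groups of 3, WT and SKG for each subset. SKG mice carry a spontaneous point mutation that weakens the kinase Zap70, which acts just below the T cell receptor, and they had been crossed with BALB/cJ mice, so that both genotypes share the BALB/c background and WT and SKG animals were bred as separate lines from one cross. Cells that bound CD1d tetramer loaded with alpha-galactosylceramide were sorted as NKT1 (ICOS low, CD49a+), NKT2 (CD49a-, Sdc-1-, ICOS high, CD4 high, TCRbeta high) or NKT17 (CD49a-, ICOS high, Sdc-1+). The ages of these mice and any pooling of animals were not given in the sources used here, and nothing states that the libraries of a group came from separate animals, so p-values measure only the spread between these libraries. The point mutation cannot be seen in gene counts, so the genotype labels were not checked by it. Levels are given in CPM, the count of a gene per 1000000 counts of the library's scaled total. Zap70 stood at 516 to 605 CPM in WT and 421 to 529 CPM in SKG NKT1 libraries, which overlapped (log2 SKG over WT -0.24 ± 0.11, SE, edgeR adjusted p = 0.36). It was lower without overlap in SKG NKT2 cells, at 397 ± 38.0 CPM (SD, n = 3) against 520 ± 47.9 CPM in WT (-0.39 ± 0.12, edgeR adjusted p = 0.0378), and in SKG NKT17 cells, at 527 ± 64.3 against 789 ± 68.5 CPM (-0.58 ± 0.12, edgeR adjusted p = 0.00174). None of these differences reached 1.5-fold. The 5 NKT17 genes Il23r, Il17re, Ccr6, Il1r1 and Sdc1 summed to at least 1526 CPM in each NKT17 library and at most 5.52 CPM in any other, which matches the labels. The 6 NKT1 markers summed to at least 4782 CPM in NKT1 libraries and at most 421 CPM elsewhere, whereas the 6 NKT2 markers separated less, with 1568 to 2219 CPM in NKT2 and 1371 to 1526 CPM in NKT17 libraries. The libraries held 4391029 to 8895917 counts each. In bulk samples such as these, fewer cells of a type and less RNA per cell cannot be told apart.

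In the mouse genome build NCBIM37 with the GENCODE M1 annotation, Tmem176b (ENSMUSG00000029810.8) lies on the minus strand of chromosome 6 from 48783810 to 48791373, and Tmem176a (ENSMUSG00000023367.8) lies on the plus strand from 48791482 to 48795363. In this annotation the genes are transcribed away from each other, with 108 bases between their annotated starts and 0 exonic bases in common. RefSeq models of GRCm38.p6 instead extend Tmem176b (48833811 to 48845948) over the whole of Tmem176a (48841483 to 48845364). The stretch between the starts is thus that of GENCODE M1 only. The whole stretch between the starts is printed because both genes are read outward from it, on the plus strand of chr6:48791374-48791481, and the capitals mark the matches found, AGTCCC (the reverse complement of the NF-kappaB letters GGGACT) and the Ets core GGAAG.
Between the Tmem176b and Tmem176a starts: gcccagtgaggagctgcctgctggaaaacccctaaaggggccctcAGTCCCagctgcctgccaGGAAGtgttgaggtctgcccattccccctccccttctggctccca
The stretch has a GC content of 63.9% and 0 CpG dinucleotides, against a median of 3 CpG in windows of the same 108 bases just before the start in 32851 RefSeq promoters of build GRCm38.p6, of which 80.5% hold at least 1. The 2 matched motifs were each found once, on either strand, and are held by 37.9% (GGAAG) and 7.11% (GGGACT) of those windows. AGGTCA, a half-site of nuclear receptors, is held by 6.34% of the windows, the Runx core TGTGGT by 6.06%, the T-box core GGTGTG by 7.5% and the STAT letters TTCNNNGAA by 2.79%, and none of these 4 is in the printed stretch. A match is a description of letters, and a missing match says only that they are not in this window.

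The pair was abundant in NKT17 cells and low in the other subsets. Tmem176a stood at 733, 792 and 838 CPM in the WT NKT17 libraries (787 ± 52.4, SD, n = 3) and at 1411, 1082 and 1466 CPM in the SKG NKT17 libraries (1319 ± 208, SD, n = 3). Tmem176b stood at 859, 993 and 894 CPM in WT NKT17 (916 ± 69.2, SD, n = 3) and at 1356, 1051 and 1477 CPM in SKG NKT17 (1295 ± 220, SD, n = 3). For both genes every SKG NKT17 library lay above every WT NKT17 library, and the lowest of the SKG libraries was the same one, replicate 2. Among the 11118 genes by mean CPM, with no correction for length, Tmem176a ranked 157 in WT NKT17 and 61 in SKG NKT17, and Tmem176b ranked 121 and 62.

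In NKT1 cells Tmem176a had 11.7, 9.93 and 17.4 CPM in the WT libraries, from 52 to 98 counts each, and 30.3, 41.2 and 29.6 CPM in the SKG libraries. Tmem176b had 19.9, 10.9 and 14.7 CPM in WT NKT1 and 48.5, 39.4 and 46.4 CPM in SKG NKT1. The genotypes did not overlap for either gene, and the highest WT library differed between the genes, replicate 3 for Tmem176a and replicate 1 for Tmem176b. Within a genotype NKT2 cells had the lowest mean. Tmem176a had 4.29, 6.29 and 5.17 CPM in WT NKT2, from 21 to 36 counts, and 15.2, 19.8 and 14.0 CPM in SKG NKT2. Tmem176b had 6.95, 13.6 and 13.1 CPM in WT NKT2 and 14.3, 20.4 and 19.1 CPM in SKG NKT2, where the lowest SKG library and the highest WT library nearly met.

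**Figure D1:**
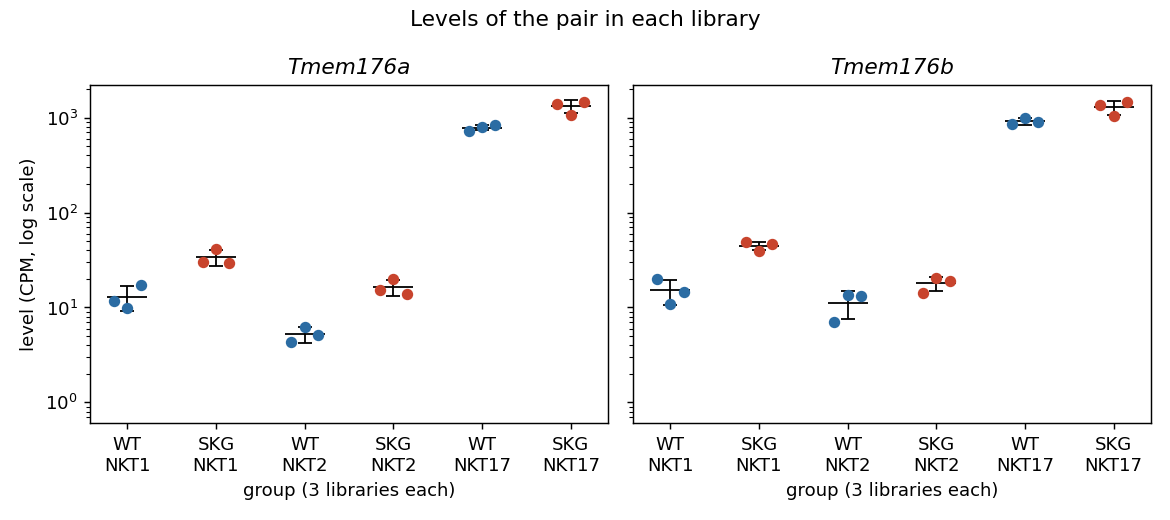
Level of Tmem176a (left) and Tmem176b (right) in each of the 18 libraries, in CPM on a log axis, by genotype and subset; points are libraries (blue WT, red SKG) and black marks are the group mean ± SD, n = 3. The 6 NKT17 libraries lie at 733 CPM or above for both genes, and the other 12 lie below 50 CPM, with SKG above WT in each subset.

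The order of the 6 groups was the same for both genes: SKG NKT17, WT NKT17, SKG NKT1, SKG NKT2, WT NKT1 and WT NKT2, from highest to lowest mean. Neighbours in this order did not overlap between libraries, with these exceptions. SKG NKT2 and WT NKT1 overlapped for both genes, with means of 16.3 and 13.0 CPM for Tmem176a and 17.9 and 15.2 CPM for Tmem176b. WT NKT1 and WT NKT2 overlapped for Tmem176b only, at 15.2 and 11.2 CPM. The difference between WT NKT2 and WT NKT1 was -1.29 ± 0.23 (SE) on the log2 scale for Tmem176a and -0.44 ± 0.24 for Tmem176b, while in SKG cells it was -1.05 ± 0.19 and -1.31 ± 0.22.

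The fold difference between NKT17 and the other subsets was narrower in SKG than in WT cells. Tmem176a was 60.6-fold higher in NKT17 than in NKT1 cells of WT mice and 39.2-fold higher in SKG mice. For Tmem176b the corresponding folds were 59.3 and 28.9. Against NKT2 cells, Tmem176a was 148-fold higher in WT and 81.0-fold higher in SKG NKT17 cells, and Tmem176b was 80.5-fold and 71.8-fold higher. These are the contrasts behind the choice of the pair, and whether the narrowing exceeds the spread was tested only as the differences of the SKG effect given below.

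The comparison of SKG with WT asks how weaker signalling through Zap70 goes with the level of the pair within each subset. Tmem176a was higher in SKG cells in all 3 subsets, and Tmem176b rose by the same criteria in NKT1 cells only. Genes were called with edgeR's quasi-likelihood test at a Benjamini-Hochberg adjusted p under 0.1 and a fold of at least 1.5. In NKT1 cells both members were called, where 3.27% of all tested genes were called. Tmem176a was 2.59-fold higher (log2 1.37 ± 0.19, SE, edgeR adjusted p = 0.00018) and Tmem176b 2.90-fold higher (log2 1.54 ± 0.21, edgeR adjusted p = 0.000339). In NKT2 cells, where 7.95% of genes were called, Tmem176a was 3.07-fold higher (log2 1.62 ± 0.23, edgeR adjusted p = 5.17e-05). Tmem176b was 1.59-fold higher there (log2 0.67 ± 0.24) and missed the threshold by a narrow margin, at an edgeR adjusted p of 0.1004. In NKT17 cells, where 8.37% of genes were called, Tmem176a was 1.68-fold higher (log2 0.74 ± 0.16, edgeR adjusted p = 0.0035). Tmem176b was 1.41-fold higher (log2 0.50 ± 0.18, edgeR adjusted p = 0.107) and was not called.

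For both genes all 3 SKG libraries lay above all 3 WT libraries in each of the 3 subsets. The same held for 7.62% of all tested genes in NKT1, 13.9% in NKT2 and 13.0% in NKT17 cells, and for 111 genes (0.998% of 11118) in all 3 subsets together. Tmem176a was 1 of 22 genes (0.198%) called higher in SKG cells in every subset, next to Il6ra, Themis, Cish and Rasgrp2. Sample titles carry 4 tokens, whose meaning the labels do not give, and 2 of these occur in both genotypes. Since no WT library reached an SKG library of its subset, SKG was bound to be above WT between libraries that share a token. The 12 such comparisons are therefore no separate check. Their log2 ratios ran from 0.37 to 1.93 for Tmem176a and from 0.07 to 2.16 for Tmem176b. The ratio of 0.07 was that of Tmem176b in NKT2 cells, at 14.3 CPM in the SKG and 13.6 CPM in the WT library.

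**Figure D2:**
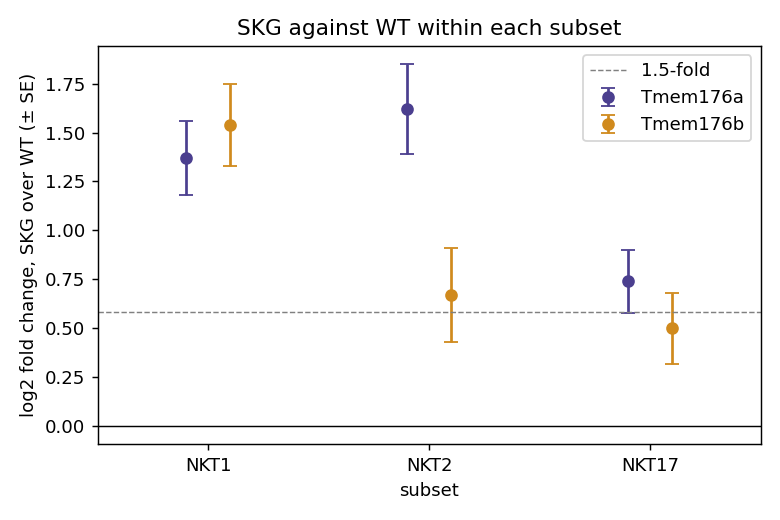
Log2 fold change of SKG over WT (edgeR, points, with bars of 1 SE) for each gene in each subset; the dashed line is 1.5-fold. Tmem176a lies at 1.37, 1.62 and 0.74 in NKT1, NKT2 and NKT17 cells, and Tmem176b at 1.54, 0.67 and 0.50.

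Whether the SKG effect itself differed between subsets was tested with interaction contrasts in the same edgeR fit. The SKG effect on Tmem176b was smaller in NKT17 than in NKT1 cells by 1.04 on the log2 scale (-1.04 ± 0.28, SE, edgeR adjusted p = 0.0579), a contrast in which 4.52% of all genes had an adjusted p under 0.1. For Tmem176a the same difference was -0.63 ± 0.24 (edgeR adjusted p = 0.205) and did not pass. Between NKT17 and NKT2 cells, where 2.26% of genes passed, the differences were -0.87 ± 0.28 for Tmem176a (edgeR adjusted p = 0.155) and -0.17 ± 0.30 for Tmem176b (edgeR adjusted p = 0.925). Between NKT2 and NKT1 cells, where 4.13% passed, they were 0.25 ± 0.29 for Tmem176a (edgeR adjusted p = 0.798) and -0.87 ± 0.32 for Tmem176b (edgeR adjusted p = 0.19). With genotype and title token together as a block, an alternative chosen after seeing the data, the differences between NKT17 and NKT1 were -0.62 ± 0.25 for Tmem176a (edgeR adjusted p = 0.196) and -1.03 ± 0.30 for Tmem176b (edgeR adjusted p = 0.0816). A miss of the threshold at these standard errors does not show that the effects were alike. Leaving out SKG NKT1 replicate 1 or replicate 3 ended the call for Tmem176b between NKT17 and NKT1 (-1.01 and -1.01, edgeR adjusted p = 0.121 and 0.118).

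The balance of the 2 genes within a library needs no scaling between libraries, since both counts come from the same pool. It does depend on how reads were divided between the genes. RefSeq gene spans overlap over the whole span of Tmem176a (3882 bases), and the exons of these models were not compared. The annotation and strand setting used in counting are not given. Tmem176a made up 46.2% ± 2.01 (SD, n = 3) of the counts of the pair in WT NKT17 and 50.5% ± 0.631 in SKG NKT17. The 3 WT NKT17 libraries had 46.0%, 44.4% and 48.4%, and the 3 SKG NKT17 libraries had 51.0%, 50.7% and 49.8%, so the genotypes did not overlap. The 95% Wilson intervals of the nearest libraries overlapped slightly. These were 47.5% to 49.2% for the highest WT and 49.0% to 50.6% for the lowest SKG library. Overlap of intervals does not decide whether 2 shares differ, and these 2 libraries were not tested against each other. In NKT2 cells the WT libraries had 38.2%, 31.6% and 28.3% and the SKG libraries 51.5%, 49.3% and 42.2%, again without overlap but on far fewer counts, and the WT library with 38.2% had an interval of 26.5% to 51.4%. In NKT1 cells the genotypes overlapped, at 37.0%, 47.7% and 54.1% in WT and 38.4%, 51.2% and 39.0% in SKG. On the log2 ratio of Tmem176a to Tmem176b, SKG exceeded WT by 0.25 in NKT17 and 0.90 in NKT2 cells, each with p = 0.1 in a two-sided exact permutation test, the smallest value that 3 against 3 libraries allow, and was lower by 0.20 in NKT1 cells (-0.20, exact permutation p = 0.7). Over all subsets, with regrouping only within a subset, the mean difference was 0.32 (exact permutation p = 0.113), which did not pass 0.05. Without WT NKT1 replicate 3 this became 0.39 (exact permutation p = 0.0418). Libraries of different subsets that share a genotype and a title token deviated together in 12 of 18 pairs (r over 0.1), whereas this regrouping treats single libraries as independent. When whole sets of 3 subsets were regrouped, the same difference of 0.32 had an exact permutation p of 0.1, the smallest that 3 against 3 sets allow. This regrouping was chosen after seeing the data.

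Which of the 2 transcripts was more abundant can be read only per length and depends on the length used. With the union of exons (1119 bases for Tmem176a and 2129 for Tmem176b), the ratio of Tmem176a to Tmem176b in CPM per kilobase was 1.64 in WT NKT17 and 1.94 in SKG NKT17. With the shortest coding transcript of each gene (1012 and 1257 bases) it was 1.07 and 1.27. In WT NKT2 cells Tmem176b was the higher of the 2 under both lengths, with ratios of 0.890 and 0.581.

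The low levels outside NKT17 cells were set beside those of these 5 NKT17 genes, as a percentage of the NKT17 mean of the same genotype. Tmem176a stood at 1.65% in WT NKT1 and 0.667% in WT NKT2 cells, and Tmem176b at 1.66% and 1.23%. In SKG cells the percentages were 2.55% and 1.24% for Tmem176a and 3.46% and 1.39% for Tmem176b. The IL-23 receptor gene Il23r stood at 0.0177% in WT NKT1 and 0.0547% in WT NKT2. Sdc1, the gene of the marker used to sort NKT17 cells, stood between 0.0925% and 0.148% in the 4 groups. In NKT1 cells of both genotypes each of the 5 NKT17 genes lay at a smaller percentage than either member of the pair, the highest being Il17re at 0.417% in WT cells. In SKG NKT2 cells the 5 genes stood between 0.0925% and 0.282%. The 5 genes had been picked as markers of NKT17 cells, and other type 17 genes stood above the pair, such as Rora at 10.5% to 47.6% and Il7r at 29.2% to 62.6% in the 4 groups. In WT NKT2 cells the chemokine receptor gene Ccr6 was at 1.9% on a total of 4 counts, against a WT NKT17 mean of only 12.1 CPM. These percentages rest on few counts for the 5 genes, and the part of NKT17 cells carried over in the sort was not tested.

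**Figure D3:**
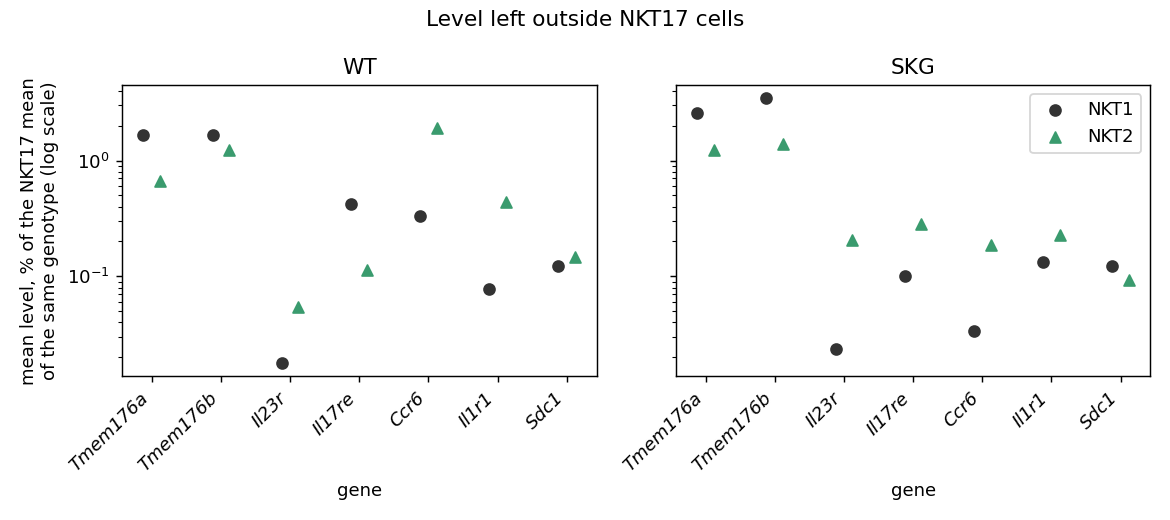
Mean level in NKT1 (circles) and NKT2 (triangles) libraries as a percentage of the NKT17 mean of the same genotype, on a log axis, for the pair and 5 genes picked as NKT17 markers, in WT (left) and SKG (right). In SKG NKT1 cells the pair lies at 2.55% and 3.46%, and the 5 other genes lie at 0.133% or below.

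The type 17 genes moved in both directions in SKG NKT17 cells. Of 27 type 17 genes followed, 26 were tested, and in NKT17 cells 2 of them rose and 5 fell, against 3.83% and 4.54% of all genes, with a median log2 fold change of 0.12 against 0.00 over all genes. The genes that fell were Il23r (log2 -0.89 ± 0.15, edgeR adjusted p = 0.000314), the cytokine gene Il17a (-2.27 ± 0.73, edgeR adjusted p = 0.0939), the IL-1 receptor gene Il1r1 (467 ± 36.3 CPM in WT and 232.5 ± 15.3 CPM in SKG, edgeR adjusted p = 0.0727), the kinase gene Blk (-1.27 ± 0.22, edgeR adjusted p = 0.00118) and the transcription factor gene Sox13 (-1.44 ± 0.27, edgeR adjusted p = 0.00226). Those that rose were the IL-6 receptor gene Il6ra (1.20 ± 0.24, edgeR adjusted p = 0.00266) and Ccr6, which stood at 3.65 to 18.4 CPM in the WT and 566 to 618 CPM in the SKG NKT17 libraries (5.62 ± 0.47, edgeR adjusted p = 5.32e-06). Unlike the pair, Il6ra had its highest mean in NKT2 cells, at 197 CPM in WT and 315 CPM in SKG. Its means in NKT17 cells were 26.0 and 59.6 CPM. The Il17a call was uneven, with 6.09, 34.0 and 83.3 CPM in the WT against 6.94 to 10.5 CPM in the SKG libraries, so the groups overlapped, and without WT NKT17 replicate 3 the difference was -1.22 ± 0.67 (edgeR adjusted p = 0.335). Il17a and Il1r1 lost their call with 1 or more of the libraries left out, and the other 5 kept it with any library left out.

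In NKT1 cells, where both members of the pair rose, 2 of the 26 type 17 genes rose (Rora, a nuclear receptor gene, and Il6ra) and 2 fell (Sox13 and Nrp1), against 1.46% and 1.82% of all genes, with a median of 0.00 against -0.01 over all genes. In NKT2 cells 8 rose, Rora and the IL-7 receptor gene Il7r among them, and 3 fell (Blk, Maf and Sox13), against 3.9% and 4.05% of all genes, with a median of 0.54 against 0.00 over all genes. With any 1 library left out, 1 of these calls in NKT1 cells (Il6ra) and 7 in NKT2 cells always held.

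Genes related to the pair in structure differed from it in their levels over the subsets. In SKG cells 3 of them were called higher in NKT2 and in NKT17 cells, as Tmem176a was. Of 17 genes of the MS4A family listed, 5 were tested. The most abundant, Ms4a4b, had its highest mean in NKT1 cells (2779 ± 98.6 CPM in WT), where the pair was low, and its lowest in NKT17 cells (8.66 ± 1.91 CPM in WT). In SKG cells none of the 5 was called in NKT1, where 3.27% of all genes were. At that share few or no calls would be met among 5 genes. Ms4a4b, Ms4a6b and Ms4a6d rose in NKT2 cells (log2 2.43, 1.27 and 1.55, SE 0.16, 0.15 and 0.30) and again in NKT17 cells (1.38, 1.67 and 1.77, SE 0.19, 0.16 and 0.34), all by edgeR with adjusted p at most 0.00143, where 3.9% and 3.83% of all genes rose. Of 27 tested genes of the endosomal and vesicle list, which includes ion channels and proton pump subunits of these compartments, 0 were called in NKT1 cells, where 3.27% of all genes were. In NKT2 cells 1 rose (the channel gene Tpcn1) and 1 fell (Lamp2, a lysosomal membrane protein), and in NKT17 cells 1 rose (the channel gene Mcoln2), where 7.95% and 8.37% of all genes were called. The calls of Tpcn1 and Mcoln2 did not hold with every library left out. The medians of this list were -0.04, -0.14 and 0.08 in the 3 subsets.

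The genes that most resembled the pair were ranked by the mean of Pearson's r with the 2 members over the 18 libraries, on log2 CPM, as a description without a test, since the libraries share their subset. Tmem176a and Tmem176b had r = 0.992 with each other, and 45 of the other genes had a mean r over 0.95. The first 10 were Zp1 (0.980), Cabin1 (0.977), Serpinb1a (0.976), Rasa4, Kcnc1, Cpe, Ltb4r1, Sdccag8, Slc9a2 and Susd2 (0.969). Serpinb1a, a protease inhibitor gene, had means of 226 CPM in WT and 349 CPM in SKG NKT17 cells, a difference that did not pass (log2 0.63 ± 0.37, SE, edgeR adjusted p = 0.36). The means of Cpe, the gene of carboxypeptidase E, were 81.5 and 128 CPM, and those of Cabin1, which encodes a calcineurin-binding protein, were 266 and 264 CPM. Only 1 of the 10 stayed among the first 10 when Spearman's rho was used, so the order within this class of NKT17 genes depends on the measure. The least similar genes were Ugcg (-0.983), which encodes glucosylceramide synthase, Abcb9, Gtf2i, Chn2 and Atp8a2 (-0.963). Ugcg stood at 390 and 281 CPM in WT and SKG NKT1, 488 and 334 CPM in WT and SKG NKT2, and 70.6 and 54.0 CPM in WT and SKG NKT17 cells, the reverse of the pair within each subset. After each group's mean was removed, the 2 members had r = 0.427 with each other, and the genes nearest to both in these deviations, among them Brix1, Ndnl2, Unc45a and Hist2h2ac, reached a mean r of 0.681 to 0.707.

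**Figure D4:**
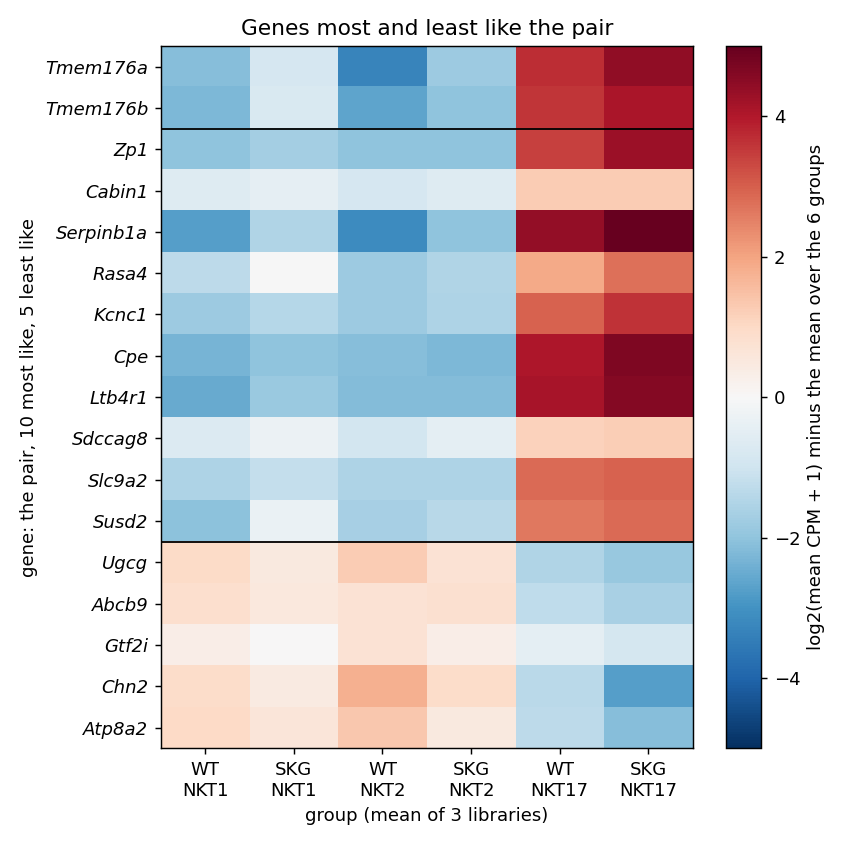
Heat map of the pair, the 10 genes most like it and the 5 least like it, with the 6 groups in columns; colour is log2(mean CPM + 1) minus the mean over the 6 groups. The 12 upper genes are highest in the NKT17 columns, and the 5 lower ones are lowest there.

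The chromosomal neighbours of the pair were read for the same comparison. Of the 12 annotated genes in the count table on each side, 24 in all, 16 were tested. These lay up to 234728 bases away on the Tmem176b side and 522374 on the Tmem176a side. Lrrc61, Atp6v0e2 and Zfp467, tested genes beyond the 12 on the Tmem176b side, lay nearer than the furthest of these 16. None of them was called in NKT17 cells (log2 -0.10, 0.48 and 0.16). In NKT1 cells, where both members rose, 0 of the 16 were called in either direction, against 3.27% of all genes. At that share few or no calls would be met among 16 genes. The median log2 fold change of the 16 was 0.05. In NKT2 cells 3 rose (Gimap3, Gimap7 and Gimap8) and 1 fell, against 3.9% and 4.05% of all genes, with a median of 0.07, and none of the 3 rises held with every library left out. In NKT17 cells 0 rose and 10 fell, against 4.54% of all genes that fell, with a median of -1.07 against 0.00 over all genes, beside Tmem176a at 0.74 and Tmem176b at 0.50. The fallen neighbours included 7 genes of the Gimap family, which encode GTPases of lymphocytes and lie 67291 to 172935 bases from the Tmem176b end of the pair. Gimap4 went from 294 ± 31.2 CPM in WT to 16.5 ± 7.11 CPM in SKG NKT17 cells (log2 -4.14 ± 0.30, SE, edgeR adjusted p = 5.19e-07) and Gimap6 from 263 ± 22.04 to 44.1 ± 15.8 CPM (-2.58 ± 0.32, edgeR adjusted p = 0.000163). Of the 10 falls 8 held with any 1 library left out, and those of Gimap3 and AI854703 did not. Gimap3, the nearest tested gene on that side, was called in opposite directions in the 2 subsets, rising in SKG NKT2 cells (1.45 ± 0.36, edgeR adjusted p = 0.0253) and falling in SKG NKT17 cells (-1.16 ± 0.38, edgeR adjusted p = 0.0874). Gimap genes are related in sequence, so reads may have been shared among them in counting. On the Tmem176a side the nearest tested gene, 2410003K15Rik, lay 228430 bases away and was at -0.16 ± 0.19 in NKT17 cells.

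**Figure D5:**
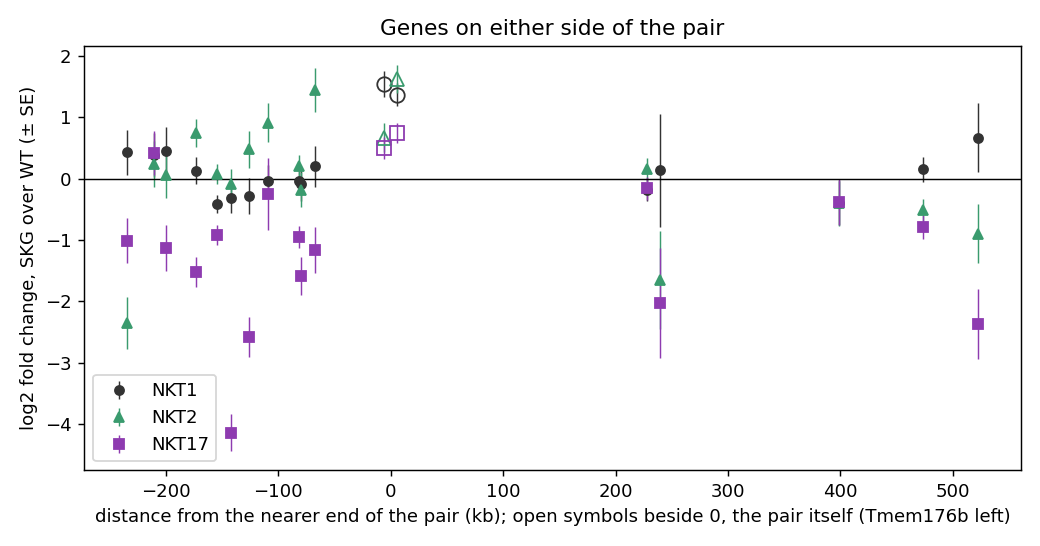
Log2 fold change of SKG over WT (edgeR, with bars of 1 SE) for the 16 tested genes of the 24 listed neighbours. The horizontal axis is the distance in kilobases from the nearer end of the pair, with symbols for NKT1, NKT2 and NKT17 cells. Open symbols beside 0 are Tmem176b (left) and Tmem176a (right). In NKT17 cells the pair lies above 0, and 10 of the 16 neighbours fell, Gimap4 the furthest at -4.14.

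Other cell types that may express the pair, or could enter the sort, were followed by marker lists. Of 27 myeloid and dendritic cell genes, 26 were in the table and 8 were tested. Over all genes 1.46%, 3.9% and 3.83% rose in SKG NKT1, NKT2 and NKT17 cells, and 1.82%, 4.05% and 4.54% fell. None of the 8 rose in SKG cells. In NKT1 cells 1 fell (Fcer1g, log2 -1.04, edgeR adjusted p = 0.099) and in NKT2 cells 1 (Cd74, log2 -2.71, edgeR adjusted p = 0.0596), neither with every library left out. At these shares few or no calls would be met among 8 genes, so the counts say little about myeloid cells. The summed level of the 26 genes was 565 to 899 CPM in WT NKT1 and 392 to 478 CPM in SKG NKT1. It was carried mostly by Fcer1g (400 and 194 CPM on average in WT and SKG), Cst3 (206 and 166 CPM) and Tyrobp (87.5 and 48.7 CPM), genes that are not confined to myeloid cells. It was 163 to 236 and 205 to 217 CPM in WT and SKG NKT2, and 261 to 360 and 308 to 359 CPM in WT and SKG NKT17 libraries, where Cst3, which many cells express, made up most of it. Of the list, Csf1r, Itgam, Itgax, Clec9a and Siglech had 0 counts in all 6 NKT17 libraries, while Xcr1 was at 17.6 and 24.6 CPM, Ciita at 9.82 and 6.19 CPM and H2-Ab1 at 4.85 and 4.18 CPM on average in WT and SKG NKT17. Of 6 B cell genes only Cd79b was tested, and it rose in SKG NKT17 cells from 9.20 ± 1.44 to 34.6 ± 8.67 CPM (log2 1.91 ± 0.40, SE, edgeR adjusted p = 0.00264). The 6 summed to 8.51 to 12.2 CPM in WT and 25.6 to 41.9 CPM in SKG NKT17, 0.323 to 1.02 and 0.964 to 1.98 CPM in WT and SKG NKT2, and 1.42 to 2.41 and 2.94 to 5.95 CPM in WT and SKG NKT1 libraries, with Pax5 at 0 counts in all 18. Of 7 genes of CD4+CD8+ thymocytes, 2 were tested, and Cd8b1 was called in NKT17 cells, where it rose from 6.54 ± 5.05 to 22.5 ± 12.7 CPM (log2 1.78 ± 0.64, SE, edgeR adjusted p = 0.0915), a call that did not hold with every library left out. The 7 summed to 5.27 to 12.5 CPM in WT and 14.3 to 47.5 CPM in SKG NKT17, 1.64 to 2.45 and 4.18 to 5.62 CPM in WT and SKG NKT2, and 2.78 to 13.8 and 0.929 to 4.51 CPM in WT and SKG NKT1 libraries. Rag1 and Rag2 were at 0 in all NKT17 libraries. Of 7 gamma delta T cell genes only Sox13 was in the table, so this list could not be read. The part of these cells in the levels of the pair was not tested.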

How the data were processed

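Raw read counts per gene, without normalization, were deposited for 18 RNA-seq libraries. According to the methods, full-length cDNA was made from poly-A RNA and tagmented, which does not mark strand, tRNA, rRNA, adapter and spike-in reads were removed by the authors, reads were aligned to mm9 with TopHat, low-complexity reads were dropped and htseq-count was run in union mode. The submitters' processing notes list TopHat 1.4.1, Bowtie 1.0.0 and HTSeq 0.7.1 with other builds. Annotation and strand setting are not given in the sources used here. GENCODE M1 puts no exon of one gene on the other. RefSeq gene spans of GRCm38.p6 overlap over 3882 bases, the whole span of Tmem176a. Reads there could be assigned to either gene or to none where exons of both genes overlap, which was not checked. The 2 columns of no listed sample were not used.

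Counts were filtered with filterByExpr (11118 genes kept of 15582 with a count), scaled by TMM (factors 0.928 to 1.07) and fitted in edgeR 4.0.16 with the robust quasi-likelihood model over all 6 groups (12 residual degrees of freedom, biological coefficient of variation 21.1%). All tests were two-sided. Each standard error was obtained from the size of the log2 fold change and the root of its F statistic. Called genes had a Benjamini-Hochberg adjusted p under 0.1 and a fold of at least 1.5, and interactions an adjusted p under 0.1. The log2 ratio of the 2 genes used a pseudocount of 0.5, and log2 CPM for likeness a prior count of 2. Replicates of every group differed by more than counting noise. Intervals cover counting error only, since reads carry no molecular identifiers. The pipeline was tested on simulated data with known changes.

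The members, lists and named genes were chosen with earlier results of these data known. Named genes were the 10 most and 5 least like the pair over all libraries, the 5 most like it in deviations, and called or defining genes of the lists. Alternatives were DESeq2 1.42.0, other scalings and filters, other thresholds, only the libraries compared, a replicate block and leaving out each library. A block on genotype and title token together and the regrouping of whole sets were added after seeing the data. Some genes of these lists are not reported here.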

Additional observations from a re-analysis of the deposited data

Results flagged for a closer look

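The difference of the SKG effect on Tmem176b between NKT17 and NKT1 cells passed the threshold of 0.1, a call lost in 4 of 21 alternatives. The effect was 1.54 ± 0.21 (SE) on the log2 scale in NKT1 and 0.50 ± 0.18 in NKT17 cells, a difference of -1.04 ± 0.28 (edgeR adjusted p = 0.0579). In both subsets 3 of 3 SKG libraries lay above all WT libraries, as held for 7.62% of all genes in NKT1 and 13% in NKT17 cells. The corresponding difference for Tmem176a was -0.63 ± 0.24 (edgeR adjusted p = 0.205). Groups of 3 libraries are too small for a search for outlying libraries.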

How the results depend on the processing

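All 156 alternative values for differences between subsets, which were not tested, kept their direction. Of 90 for SKG against WT, 86 kept their direction and their side of the threshold, the scalings included. Tmem176b passed in NKT2 cells with DESeq2 (0.66, adjusted p = 0.0357) and in NKT17 cells without SKG NKT17 replicate 2 (0.63). Leaving out 1 library gave log2 changes in NKT1, NKT2 and NKT17 cells of 1.23 to 1.63, 1.46 to 1.77 and 0.66 to 0.87 for Tmem176a, and 1.38 to 1.81, 0.43 to 0.82 and 0.39 to 0.63 for Tmem176b, which passed in NKT2 cells without WT NKT2 replicate 2 (0.82) or SKG NKT2 replicate 1 (0.79). Between NKT17 and NKT1, the Tmem176b difference no longer passed with no filter on low counts (-1.04, edgeR adjusted p = 0.102), at a threshold of 0.05 (-1.04), or without SKG NKT1 replicate 1 or 3 (-1.01 each). With DESeq2 the Tmem176a difference between NKT17 and NKT2 (-0.88) and the Tmem176b difference between NKT2 and NKT1 (-0.89) passed, and with only the libraries compared the former passed too (-0.87). Leaving out 1 library gave NKT17 minus NKT1 differences of -0.88 to -0.49 for Tmem176a and -1.31 to -0.89 for Tmem176b, NKT17 minus NKT2 differences of -1.02 to -0.72 and -0.32 to 0.07, and NKT2 minus NKT1 differences of -0.01 to 0.41 and -1.15 to -0.70. The sign turned for Tmem176b without WT NKT2 replicate 1 (0.07) and for Tmem176a without WT NKT1 replicate 3 (-0.01), both far from any call. Of these, Tmem176a between NKT17 and NKT1 passed without WT NKT1 replicate 3 (-0.88), and Tmem176b between NKT2 and NKT1 passed without WT NKT1 replicate 1 (-1.15) or WT NKT2 replicate 1 (-1.13). The mean log2 ratio of the 2 genes was 0.23 to 0.39 with 1 library left out, and passed without WT NKT1 replicate 3 (0.39). Causes were not tested. With the title token as a replicate block, Tmem176a was at 1.32, 1.57 and 0.71 and Tmem176b at 1.44, 0.58 and 0.41 in NKT1, NKT2 and NKT17 cells, and no call changed. The 36 pairs of libraries that share a token had correlations of their deviations from -0.151 to 0.351. The 12 over 0.1 were all among the 18 pairs of 1 genotype (-0.0612 to 0.351, median 0.17), and none of the 18 pairs across genotypes was (-0.151 to 0.09), so the tokens were not taken to pair WT with SKG libraries. A block on genotype and token together and the regrouping of whole sets, both chosen after seeing the data, changed no call. Of the 10 genes most like the pair, 1 was kept with Spearman's rho. Outside NKT17 cells, 21 to 268 counts per library set the precision.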
